A study of Mus musculus with 8 samples.

Results

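The mouse genes described are Cps1, Ass1, Arg1 and Nags, which belong to the urea cycle, and Glul, which makes glutamine. They are 5 of 14709 protein-coding genes whose DNA methylation was tested. Each was taken as its RefSeq span on mm10 with 5 kb added on either side, and the 5 spans hold 5346 of 30729668 listed cytosine positions. Methylation was read by whole-genome bisulfite sequencing of liver DNA, from wild-type male mice of the inbred strain C57BL/6J that were bought at 8 weeks of age and fed for 28 weeks. The feeds were a normal diet and one high in fat, cholesterol and fructose. The 4 libraries called NASH (nonalcoholic steatohepatitis) are titled so, and the 4 called ND (normal diet) in the table are taken as those titled WT. The labels' treatment entries name the opposite group from the titles, and if they were right every direction given here would turn round. No label ties the libraries to separate mice, and the p-values therefore cover only the spread between libraries, which may be technical.

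The urea cycle turns ammonia, which is toxic, into urea in the liver. Carbamoyl phosphate synthetase, encoded by Cps1, binds ammonia in the mitochondrion, and it works only with N-acetylglutamate, the product of Nags. Ass1 joins citrulline to aspartate, and Arg1 splits arginine into urea and ornithine. These enzymes are known from periportal hepatocytes, at the blood inlet of the liver lobule, while glutamine synthetase (Glul) marks a narrow rim of perivenous hepatocytes that takes up the remaining ammonia. Otc and Asl, the other enzymes of the cycle proper, were not analysed here.

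The 250 bases before the annotated start are shown for the 3 genes with an entry in the RefSeq promoter table (GRCm38.p6, plus strand, 5′ to 3′), because these CpG-holding stretches were low in methylation in most libraries. Capitals mark each CpG, the dinucleotide whose cytosine was measured. They lie at chr2:31470020-31470269 for Ass1, chr11:102145263-102145512 for Nags and chr1:153899679-153899928 for Glul.
Ass1: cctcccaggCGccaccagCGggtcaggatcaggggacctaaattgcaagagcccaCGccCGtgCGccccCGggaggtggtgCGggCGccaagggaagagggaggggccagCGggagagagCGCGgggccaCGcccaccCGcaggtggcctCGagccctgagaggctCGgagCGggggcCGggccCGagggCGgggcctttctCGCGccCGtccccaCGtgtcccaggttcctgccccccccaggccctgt
Nags: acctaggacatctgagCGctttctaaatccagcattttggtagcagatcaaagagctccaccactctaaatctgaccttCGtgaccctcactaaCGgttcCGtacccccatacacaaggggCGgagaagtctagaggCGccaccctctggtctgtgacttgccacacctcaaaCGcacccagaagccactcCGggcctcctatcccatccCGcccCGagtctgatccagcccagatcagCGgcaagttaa
Glul: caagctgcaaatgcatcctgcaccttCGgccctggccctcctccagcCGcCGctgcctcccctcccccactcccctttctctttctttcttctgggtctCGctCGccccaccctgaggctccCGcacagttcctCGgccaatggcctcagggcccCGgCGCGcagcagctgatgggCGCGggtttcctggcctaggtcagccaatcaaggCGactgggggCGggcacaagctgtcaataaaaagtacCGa
The Ass1 stretch holds 23 CpGs and is 75.6% G or C, that of Glul holds 15 CpGs at 64.8%, and that of Nags holds 11 CpGs at 55.6%. The letters GGGCGG (the GC box), searched on both strands, occur once forward in Ass1, once on either strand in Nags and once forward in Glul. They occur in 32.7% of 32851 RefSeq promoters of the same length. CCAAT was found 2 times forward in Glul and not in the others, against 33.8% of all promoters. TATAAA was found in none of the 3 stretches, against 12.4%, and no matches overlapped.

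Methylation rose in NASH over the spans of Cps1, Ass1, Arg1 and Nags and did not pass the test over Glul. The rise was 10.7 percentage points for Cps1, 9.62 for Ass1, 8.88 for Arg1 and 5.32 for Nags, with limma and Benjamini-Hochberg adjustment over all spans. Among all 14709 spans 9.29% were called, 5.99% higher and 3.3% lower, while 9.48% had every NASH library above every ND library and 8.16% had every one below. The median difference over all spans was -0.28 points. Mean methylation over all listed positions was 71.5% in NASH and 71.9% in ND (exact two-sided permutation p = 0.429).

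Cps1 (chr1:67122426-67231267, NCBI gene 227231), the entry enzyme of the cycle, had 1588 positions in its span. Its level was 65.2%, 63.1%, 61.6% and 65.8% in NASH replicates 1 to 4 and 52.2%, 53.4%, 54.0% and 53.3% in the ND replicates. Every NASH library lay above every ND library. The means were 63.9% ± 1.92 and 53.2% ± 0.788 (SD, n = 4), a difference of 10.7 points (SE 0.934, limma adjusted p = 0.00117), which ranked 24 among all spans ordered from the most positive.

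Ass1 (chr2:31470270-31520670, NCBI gene 11898), argininosuccinate synthase, had the most positions, 1852. NASH replicates stood at 67.8%, 64.8%, 61.2% and 68.6%, and ND replicates at 57.3%, 55.0%, 55.7% and 55.9%. The groups did not overlap, and the NASH libraries were the more scattered ones. Means were 65.6% ± 3.38 and 56.0% ± 0.962 (SD, n = 4), and the difference was 9.62 points (SE 1.52, limma adjusted p = 0.00728).

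Arg1 (chr10:24915207-24927470, NCBI gene 11846), liver arginase, had 564 positions in its span. NASH replicates stood at 64.6%, 64.0%, 63.7% and 65.1%, and ND replicates at 57.6%, 56.5%, 53.0% and 54.9%. Here the ND libraries were the more scattered, and again no library crossed into the other group. Means were 64.4% ± 0.623 and 55.5% ± 1.99 (SD, n = 4), a difference of 8.88 points (SE 0.937, limma adjusted p = 0.00179). The span also touches Med23, Mir6905 and the long noncoding genes Gm40616 and Gm36228, and with positions inside those left out the means were 72.4% in NASH and 62.0% in ND.

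Nags (chr11:102145513-102149528, NCBI gene 217214), the shortest of the 5 genes, was the least methylated, over 566 positions. NASH replicates stood at 36.1%, 34.7%, 35.5% and 35.9%, and ND replicates at 29.4%, 30.4%, 30.0% and 31.0%. The libraries agreed closely within each group, and the gap between the groups was wider than either range. Means were 35.5% ± 0.629 and 30.2% ± 0.668 (SD, n = 4), a difference of 5.32 points (SE 0.484, limma adjusted p = 0.00129). The span overlaps Gm11586 and Tmem101, and with positions inside them left out the means were 37.9% in NASH and 31.6% in ND. A level of exactly 0 can stand for an unmethylated site or for a site without reads. With only doubtful zeros left out (a 0 among highly methylated neighbours, 0.883% to 2.30% of Nags positions), the rise was 5.09 points (limma adjusted p = 0.00119). With every 0 left out, unmethylated sites included, the level over the remaining positions was 62.6% in NASH and 63.8% in ND, a difference of -1.19 points (limma adjusted p = 0.714).

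Glul (chr1:153899929-153909723, NCBI gene 14645), glutamine synthetase, had 776 positions. NASH replicates stood at 51.4%, 50.04%, 54.2% and 53.4%, and ND replicates at 50.8%, 51.7%, 50.9% and 50.1%. NASH replicate 2 was the lowest of all 8 libraries and NASH replicate 3 the highest, so the groups overlapped. Means were 52.3% ± 1.90 and 50.9% ± 0.662 (SD, n = 4), a difference of 1.39 points (SE 0.915, limma adjusted p = 0.393). With positions inside Gm38440 and Mir8114 left out the means were 52.4% in NASH and 51.3% in ND.

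**Figure D1:**
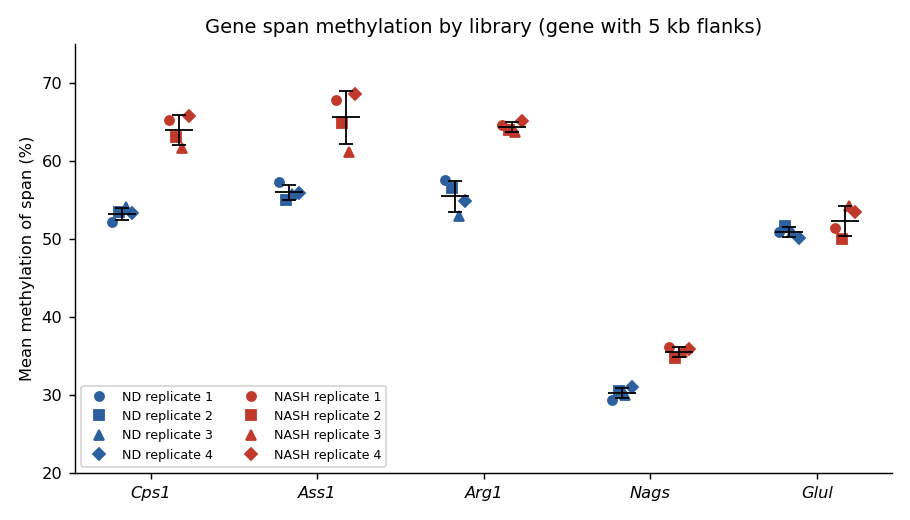
Mean methylation in percent of each gene span with its 5 kb flanks, 1 point per library, with the shape giving the replicate number, the long bar the mean and the short bars 1 SD (n = 4). The NASH points of Cps1, Ass1, Arg1 and Nags all lie above their ND points, and those of Glul overlap; the axis starts at 20%.

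In the order of ND levels, Nags was lowest at 30.2%, Glul followed at 50.9% and Cps1 at 53.2%, and Arg1 (55.5%) overlapped in range with both Cps1 and Ass1 (56.0%). In NASH, Nags (35.5%) and Glul (52.3%) kept those places, and the other 3 genes lay between 63.9% and 65.6% with ranges that overlapped. These levels are plain means of the percentages listed per position and are not summed over gene length. Sites without reads may be listed as unmethylated, and any such sites are included in the means. How many there are is unknown without read counts.

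The change of each urea cycle gene was set against that of Glul in the same libraries, in 4 comparisons. The change of Cps1 exceeded that of Glul by 9.31 points, that of Ass1 by 8.23, that of Arg1 by 7.49 and that of Nags by 3.93. Each gave an exact two-sided permutation p of 0.0286 (adjusted over the 4 comparisons, 0.0286), the smallest that 70 assignments of the 8 libraries can give. No call held with doubtful zeros left out, where the excesses were 8.76, 7.81, 7.12 and 3.27 points with exact permutation p-values, adjusted, of 0.0571, 0.0857, 0.0571 and 0.0762. None held without flanks either, where the excesses were 9.63, 8.66, 11.002 and 4.44 points and the exact adjusted p was 0.0571 for each. With every 0 left out, the excess of Nags became -0.34 points (exact permutation p, adjusted, 0.914).

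Groups did not overlap in the body and both flanks of Cps1, nor in the body and 1 flank of Ass1, Arg1 and Nags. The body of Cps1 went from 53.2% in ND to 64.1% in NASH, its low-coordinate flank from 60.2% to 66.3% and its high-coordinate flank from 46.6% to 56.2%. In Ass1 the body went from 58.3% to 68.2% and the high flank from 46.8% to 59.9%, both without overlap, while the low flank, which holds the sequence before the start, stood at 37.9% and 41.9% with overlapping libraries. Arg1 stood at 59.7% and 70.1% in its low flank and 48.4% and 60.6% in its body, without overlap. Its high flank was at 66.1% in ND and 66.2% in NASH, with overlapping libraries. In Nags the low flank (34.0% and 41.1%) and the body (13.3% and 19.0%) did not overlap, and the high flank (79.0% and 81.2%) did. Body and flanks of Glul overlapped between groups, with the body at 50.5% in ND and 51.8% in NASH. How often the bodies and flanks of other genes lie without overlap was not counted. Of all whole spans 9.48% had every NASH library above every ND library and 8.16% had every one below.

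Steps of 1 kb gave the course along each gene. After adjustment over 1609837 windows of the table, limma called 0 windows inside the 5 spans and 4 (0.000248%) among all windows, 0.000124% higher and 0.000124% lower. At an unadjusted limma p under 0.05 the windows numbered 71 of 111 in Cps1, 28 of 61 in Ass1, 15 of 23 in Arg1, 8 of 15 in Nags and 3 of 20 in Glul, against 10.9% of all windows. Because single windows passed so rarely, windows whose 4 NASH values all lay above their 4 ND values were counted as well, a count chosen after seeing the data. Of all windows 2.78% lay so, and 3.71% had all NASH values below. The share above depended on the mean level of the window over all 8 libraries. It was 15.9% from 20% to 40%, 10.3% from 40% to 60%, 2.95% from 60% to 80% and 1.23% above 80%.

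By that count NASH was above ND in 56 of 111 windows of Cps1, 15 of 61 of Ass1, 12 of 23 of Arg1 and 5 of 15 of Nags, and in 1 of 20 of Glul. No window of the 5 genes had all NASH values below. In Cps1, Ass1, Arg1 and Nags together the difference was positive in 199 of 210 windows, while in Glul it was positive in 11 of 20. The median window difference was 10.7 points in Cps1, 8.80 in Ass1, 10.0 in Arg1, 5.14 in Nags and 0.618 in Glul. Neighbouring windows share libraries and are not replicates.

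**Figure D2:**
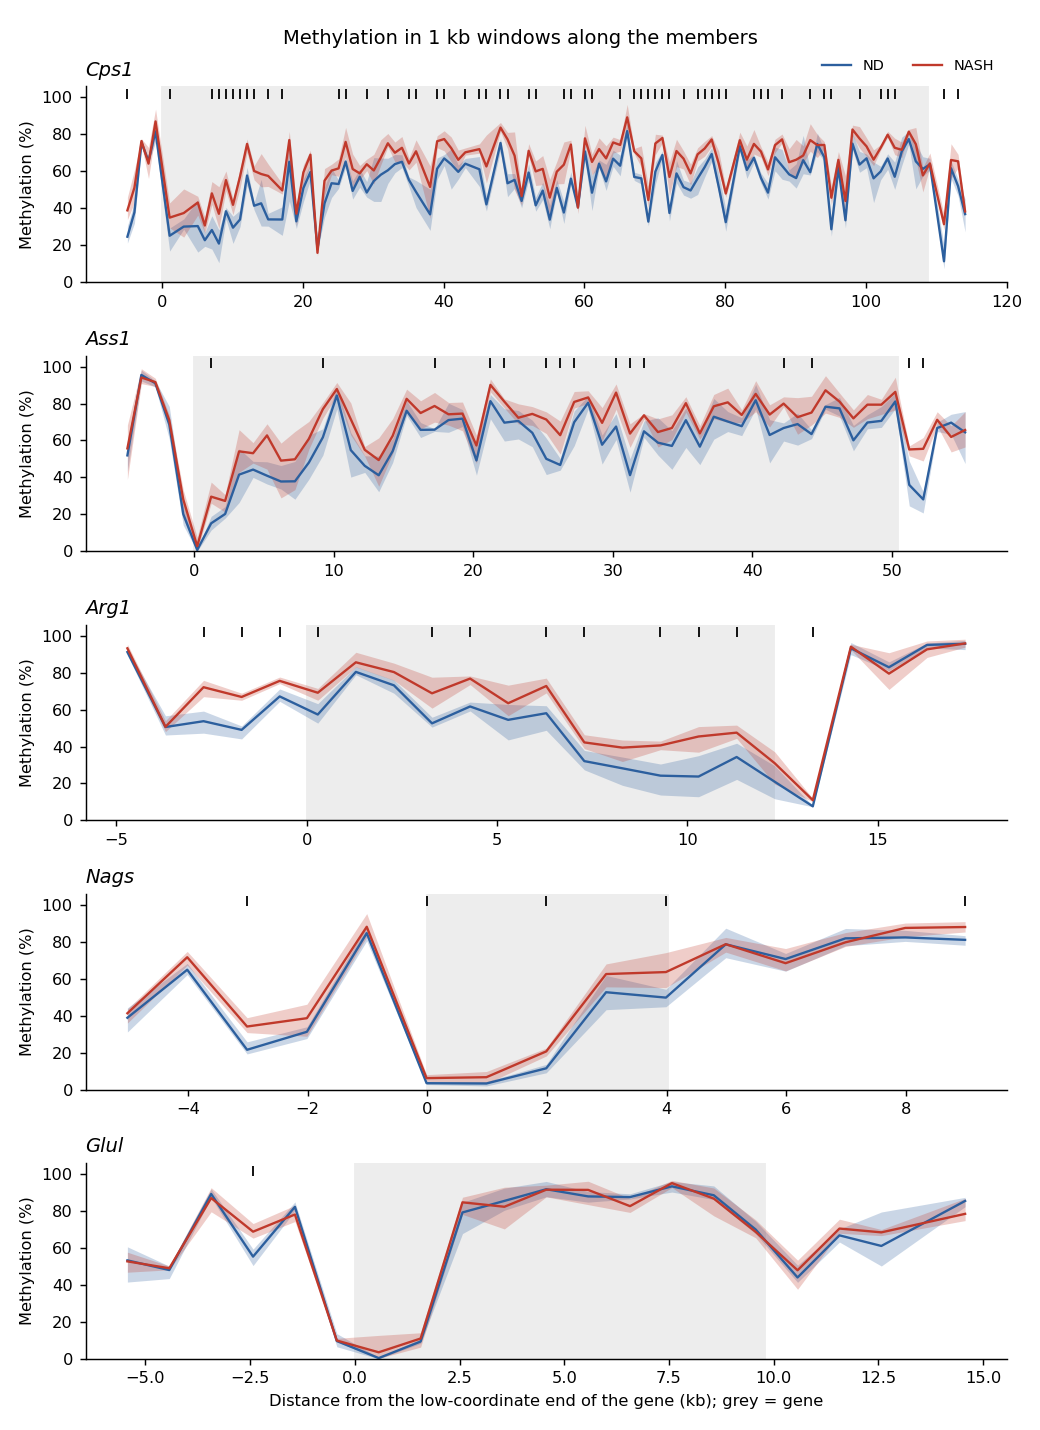
Methylation in percent of 1 kb windows against distance in kb from the low-coordinate end of each gene, with lines at group means, bands from the lowest to the highest of 4 libraries, grey for the gene and ticks over windows without overlap between groups. The NASH line runs above the ND line through nearly all of Cps1, Ass1 and Arg1 and crosses it repeatedly in Glul.

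The longest run of Cps1 windows without overlap covered 7 windows at chr1:67129001-67136000, where the level went from 35.7% in ND to 53.5% in NASH. The longest run in Ass1 was 3 windows at chr2:31500001-31503000, with 57.9% and 74.4%, and that in Arg1 was 4 windows at chr10:24912001-24916000, with 56.8% and 71.0%. The Arg1 run lies in the low flank and reaches into the low-coordinate end of the gene, and its first windows overlap Med23, a Mediator subunit gene. In Nags and Glul such windows stood alone.

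The window with the largest difference in Ass1 (chr2:31522001-31523000) lay past the far end of the gene and held 26 positions. Its level was 61.6%, 48.9%, 52.1% and 59.3% in NASH replicates 1 to 4 and 32.2%, 20.7%, 28.4% and 31.0% in ND. The lowest NASH library was well above the highest ND library, and the difference was 27.4 points (SE 3.69, limma adjusted p = 0.0875). In Cps1 the largest difference was in the middle of the gene (chr1:67179001-67180000), with 63.6%, 61.5%, 53.4% and 75.9% in NASH and 43.7%, 31.7%, 35.03% and 40.2% in ND (difference 25.9 points, SE 4.92, limma adjusted p = 0.134). That window held only 6 positions, the minimum used.

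In Arg1 the largest difference lay inside the gene (chr10:24925001-24926000), where NASH replicates stood at 50.8%, 37.0%, 45.7% and 48.3% and ND replicates at 25.3%, 35.1%, 21.8% and 12.8%. NASH replicate 2 was just above ND replicate 2, and the difference of 21.7 points (SE 4.75) had a limma adjusted p of 0.169. In Nags it lay across the end of the gene (chr11:102149001-102150000), at 49.8% in ND and 63.7% in NASH (limma adjusted p = 0.319). The only window of Glul without overlap (chr1:153897001-153898000) lay before the start, at 55.3% ± 3.72 in ND and 68.9% ± 3.29 in NASH (SD, n = 4; limma adjusted p = 0.179).

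The most negative window differences were -3.53 points in Cps1, -7.76 in Ass1, -3.45 in Arg1, -2.25 in Nags and -7.00 in Glul, each with overlapping libraries. For Ass1 this was the window at chr2:31524001-31525000, near the outer edge of the flank, at 69.7% in ND and 61.9% in NASH (limma adjusted p = 0.538). For Glul it was chr1:153914001-153915000, also at the edge, at 85.5% and 78.5% (limma adjusted p = 0.431).

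Wider windows of 5 kb, added after seeing the data, gave calls inside the genes. Over the table, limma called 0.589% of 365381 such windows, 0.399% higher and 0.19% lower. The members had 13 of 25 windows called higher in Cps1, 2 of 13 in Ass1, 3 of 5 in Arg1, 1 of 3 in Nags and 0 of 5 in Glul, and none lower. The largest in Cps1 was chr1:67135001-67140000, at 38.5% ± 3.20 in ND and 56.4% ± 3.08 in NASH (SD, n = 4; limma adjusted p = 0.0182). In Ass1 the window chr2:31500001-31505000 went from 57.7% ± 2.33 to 72.5% ± 3.43 (SD, n = 4; limma adjusted p = 0.0248). In Nags the window over the start and body (chr11:102145001-102150000) went from 13.3% ± 0.768 to 19.1% ± 1.48 (SD, n = 4; limma adjusted p = 0.0213), a call that is not made with every 0 left out.

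Window differences moved with the methylation level, so the windows were also compared within classes of level. Sorted by their mean over all 8 libraries, the 56 windows of Cps1, Ass1, Arg1 and Nags between 40% and 60% had a median difference of 12.6 points, and all 103387 such windows of the table had 1.40. The 25 windows between 20% and 40% had a median of 11.7 points against 2.41 over the table, and the 103 windows between 60% and 80% had 9.29 against -0.65. In the highest class, above 80%, the 20 windows had a median of 3.43 points against -0.86. All NASH values lay above all ND values in 13 of the 25 windows, 26 of the 56, 44 of the 103 and 2 of the 20. The shares of each class over the table are given above. The classes are a description without a test, and Glul had no more than 10 windows in any class.

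**Figure D3:**
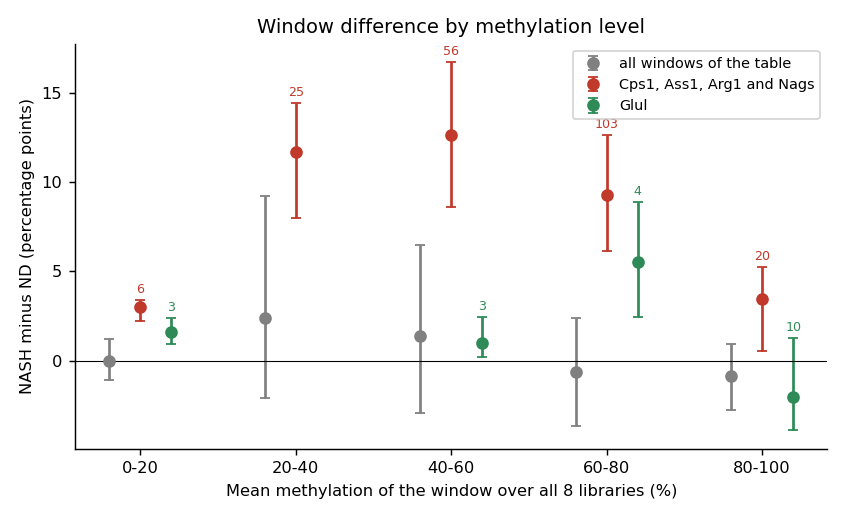
Median difference NASH minus ND in percentage points, with bars from the lower to the upper quartile of windows, for 1 kb windows sorted by their mean level in percent over all 8 libraries; numbers give the windows in each class. In Cps1, Ass1, Arg1 and Nags the medians were 11.7, 12.6 and 9.29 in the classes from 20% to 80%, against 2.41, 1.40 and -0.65 over the table.

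At the ends of the genes, taken from 1000 bases outside to 500 bases inside, limma called none of the 10 members' ends, where 0.0103% of 29109 ends were called higher and 0% lower. All NASH libraries were above all ND libraries in 4.25% of ends and below in 3.99%. Of all 29109 ends, 3776 had an unadjusted limma p under 0.05, among them the start of Ass1, both ends of Arg1 and both ends of Nags. The strand is known here only for Ass1, Nags and Glul, so the ends of Cps1 and Arg1 are named by coordinate. The end past the body of Nags stood at 72.3%, 62.7%, 60.4% and 65.7% in NASH and 55.0%, 49.1%, 55.1% and 48.9% in ND, without overlap (difference 13.3 points, SE 3.07, limma adjusted p = 0.123). The low end of Arg1 was at 65.7% in ND and 73.1% in NASH, also without overlap (limma adjusted p = 0.158). The start of Nags was at 8.04% and 10.9% without overlap (limma adjusted p = 0.212). The starts of Ass1 (3.51% and 6.99%) and Glul (4.73% and 5.83%), the high end of Arg1 (12.2% and 18.5%) and both ends of Cps1 overlapped.

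The stretches printed above were nearly unmethylated in most libraries. In the 46 positions before the start of Ass1, NASH replicates stood at 1.09%, 2.17%, 0% and 17.8% and ND replicates at 0.513%, 0%, 2.17% and 0%. NASH replicate 4 alone was high. Before Nags the 22 positions stood at 5.74%, 17.4%, 6.30% and 7.85% in NASH and 7.73%, 3.98%, 2.27% and 6.55% in ND, again with 1 NASH library, replicate 2, above the rest. Before Glul the 30 positions stood at no more than 2.33% in any library.

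Steps of 250 bases followed the levels away from the unmethylated stretch. In Ass1 the step that begins 1500 bases after the start (10 positions) was at 23.6% ± 9.32 in ND and 47.7% ± 8.62 in NASH (SD, n = 4), without overlap. In Nags the step at 2750 bases (10 positions) was at 39.0% ± 8.85 and 62.9% ± 13.6 (SD, n = 4), also without overlap. In Glul the step at 1750 bases was at 36.4% ± 6.53 and 39.9% ± 15.6 (SD, n = 4), with overlap. Farther out, the Glul step that begins 2500 bases before the start was at 38.7% ± 6.19 in ND and 66.9% ± 12.4 in NASH (SD, n = 4), without overlap. These single steps were picked after their values were seen and carry no test.

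**Figure D4:**
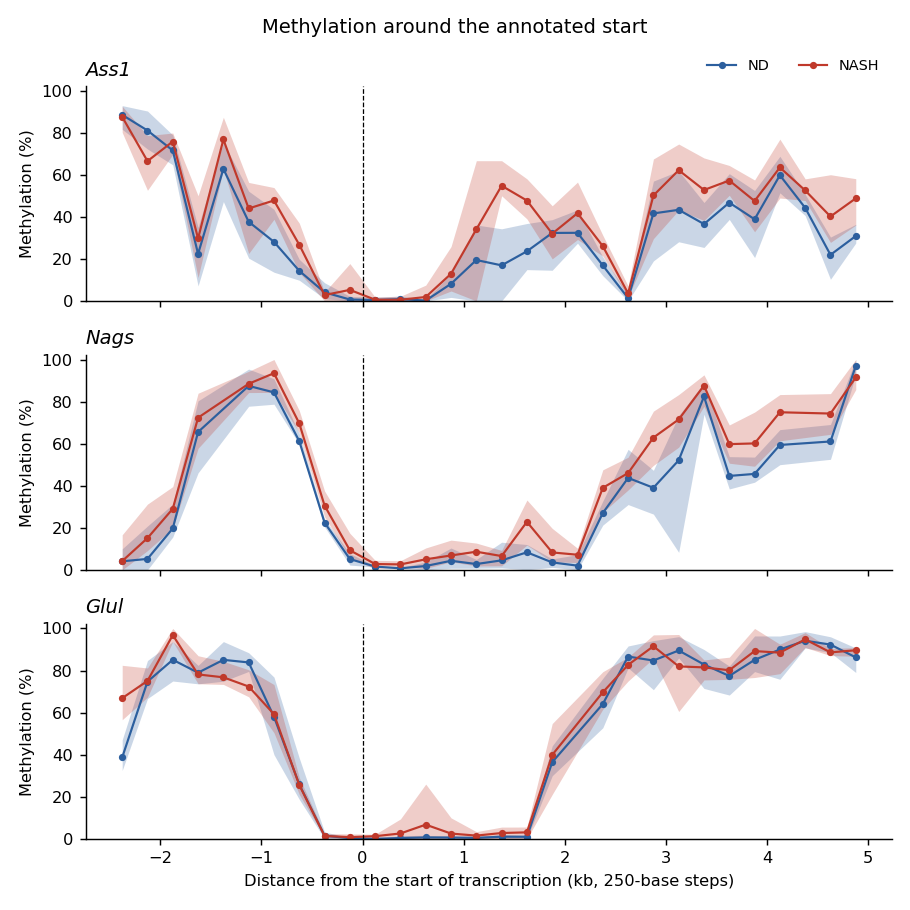
Methylation in percent in 250-base steps against distance in kb from the annotated start (dashed) of Ass1, Nags and Glul, with lines at group means and bands from the lowest to the highest of 4 libraries. All 3 genes are near 0% around the start. The NASH line lies above the ND line in most downstream steps of each, Glul included, and the bands overlap in most of these steps.

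CpG-dense positions, with at least 20 listed positions within 200 bases, were mostly found in Nags (240), Glul (288) and Ass1 (159); this split was added after seeing the data. In Nags they stood at 13.8% in ND and 17.6% in NASH without overlap, and the sparse positions at 42.3% and 48.7%, also without overlap. In Ass1 the dense positions stood at 36.4% and 46.7% with overlap and the sparse ones at 57.8% and 67.4% without. In Glul the dense positions were at 24.0% and 25.6% and the sparse ones at 66.7% and 68.0%, each with overlap. The split carries no test, and how often such positions of other genes lie without overlap was not counted.

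Listed zeros differed between the genes. In Nags, 38.7%, 45.8%, 45.2% and 42.8% of positions were listed at 0 in NASH replicates 1 to 4, and 51.2%, 52.3%, 52.3% and 54.4% in ND. No NASH library reached the lowest ND library. In Cps1 zeros made up 2.02% to 2.96% of positions in NASH and 3.72% to 6.68% in ND, and with every 0 left out its difference was 9.60 points (limma adjusted p = 0.0102). Under the same setting the difference was 6.87 points in Ass1 (limma adjusted p = 0.0242) and 7.18 in Arg1 (limma adjusted p = 0.0118). In Glul zeros made up 29.9% to 35.3% in NASH and 35.1% to 36.6% in ND, and its difference became -0.86 points (limma adjusted p = 0.706).

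The rest of the pathway was covered in part, and its counts stand beside 5.99% of all spans called higher and 3.3% called lower. Of 8 further urea cycle genes 3 were tested and none was called: Sirt5, a mitochondrial deacylase that acts on Cps1 (-0.88 points, limma adjusted p = 0.441), Slc25a2, an ornithine carrier (1.43 points, 0.470), and Arg2, the mitochondrial arginase (-0.53 points, 0.577). Of 12 tested glutamine and glutamate genes 6 were called higher and none lower, with a median of 1.41 points over the list against -0.28 over all spans. Prodh, listed at 0 nearly throughout (at most 0.283% in any library over 707 positions), counts among the 12, and the median without it was 2.90 points. The liver amino acid transporter Slc38a4 went from 57.9% to 65.8% (limma adjusted p = 0.00341), glutamate dehydrogenase Glud1 from 40.9% to 47.1% (0.00144), Aldh4a1 from 62.2% to 65.9% (0.0271) and the liver glutaminase Gls2 from 35.8% to 39.1% (0.0147). Of 7 tested genes that use arginine or its products 1 was called higher, Agmat (66.3% to 71.0%, limma adjusted p = 0.00212), and none lower, with a median of -0.06 points. That median is the value of Gatm, listed at 0 nearly throughout (at most 0.321% in any library over 624 positions), and without it the median of the other 6 was 0.402 points.

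Zonation genes did not all go one way, and the shares called over all spans were 5.99% higher and 3.3% lower. Of 7 tested periportal genes 3 were called higher and none lower, with a median of 2.72 points and a positive difference in 5. Those called were Pck1, of gluconeogenesis, from 38.4% to 52.4% (limma adjusted p = 0.00179), Gls2, and histidase Hal from 67.0% to 69.8% (0.00969). Of 12 tested perivenous genes 1 was called higher and 1 lower, with a median of 0.477 points. They were the sterol hydroxylase Cyp27a1, from 56.4% to 63.1% (limma adjusted p = 0.00181), and the R-spondin receptor Lgr5, from 75.7% to 74.4% (0.0363). Of 11 tested regulators 4 were called higher and none lower, with a median of 0.777 points. Among those called were the glucagon receptor Gcgr (35.2% to 42.4%, limma adjusted p = 0.00131), Hnf4a (52.2% to 59.4%, 0.00141) and the glucocorticoid receptor Nr3c1 (52.0% to 54.2%, 0.0304).

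Marker genes of liver cell types were set beside the members, where 5.99% of all spans were called higher and 3.3% lower. All 10 tested hepatocyte markers rose, with a median of 9.56 points. Their mean level was 43.8% to 45.5% in ND libraries and 53.2% to 58.1% in NASH libraries. These markers are not all separate: the fibrinogen genes Fga, Fgb and Fgg lie side by side, with overlapping spans of Fga and Fgb. Hnf4a is also counted among the regulators, and the lists were chosen with earlier results of these data known. Of macrophage markers 2 of 12 were called lower and none higher (68.8% to 70.2% in ND, 67.4% to 68.0% in NASH). Of neutrophil markers 3 of 11 were called lower and none higher (72.2% to 73.5%, 70.2% to 70.8%). Of stellate cell markers 1 of 10 was called lower and of cholangiocyte markers 2 of 8, with none called higher. Such small counts are too few to set against the shares over all spans. Of 6 lymphocyte and 9 endothelial markers none was called. Their part in the differences of Cps1, Ass1, Arg1 and Nags was not tested, and in bulk liver a changed share of a cell type and a changed level within its cells cannot be told apart.

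**Figure D5:**
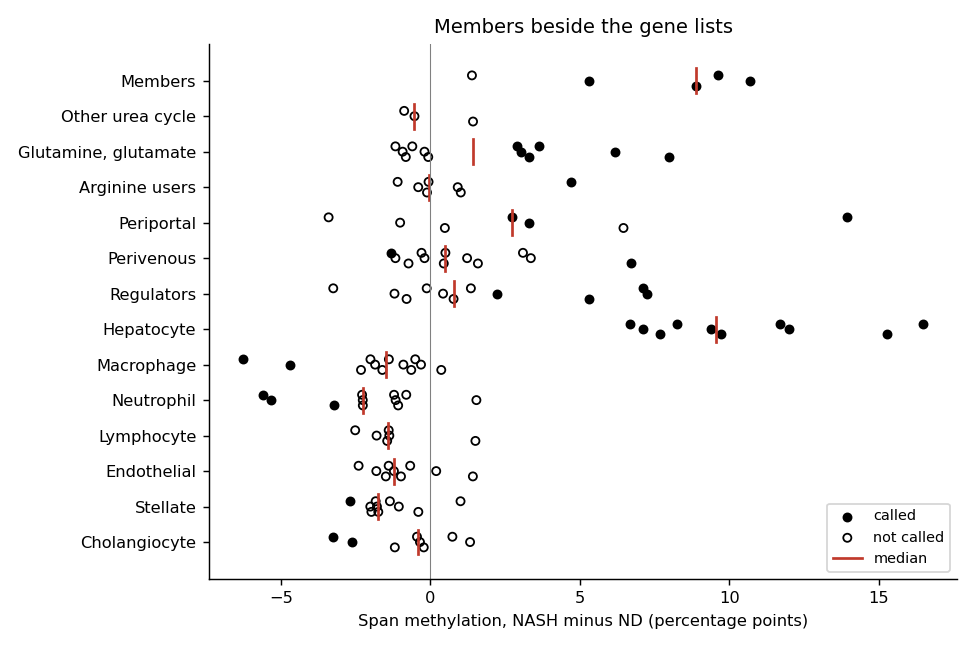
Difference of gene span methylation, NASH minus ND in percentage points, for the 5 members and the tested genes of each list; each circle is a gene, filled where limma's adjusted p is under 0.05, and the red line is the median. The members' median is 8.88 points, next to 9.56 for hepatocyte markers.

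The genes whose library pattern came closest were found by the root mean square distance between values over the 8 libraries after each gene's own mean was subtracted, over 14204 genes with at least 100 positions. Those of Cps1 included Tomm40l (1.13 points) and the electron carrier gene Cyb5a (1.31). For Ass1 the closest was Cps1 itself (1.48 points), and Serpinf2 (1.65) was also among the nearest. For Arg1 the closest were Gcgr (1.23 points) and the squalene synthase gene Fdft1 (1.25). For Nags they were Itih2, Cisd1 and Lifr, at 0.486, 0.521 and 0.563 points, and for Glul Micos13, Ptgdr and 4930512M02Rik, at 0.405, 0.535 and 0.552. All share the same libraries, and the distances carry no test.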

How the data were processed

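DNA methylation was measured by whole-genome bisulfite sequencing in 8 liver libraries. Per the labels' protocols, genomic DNA was sonicated, treated with bisulfite and made into libraries. The authors deposited 1 table of percent methylation per cytosine position and library, without read counts, so depth is unknown and no intervals were computed. The submitters' processing notes name mm10 and FastQC, and neither aligner nor caller is given in the sources used here. Replicates were grouped by title, and the columns named ND were matched to the WT titles, the one group left over.

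The table as held covers 15 placed chromosomes, with chromosome 5 up to position 117098872. Not analysed here were chromosomes 6, 7, 8, 9, X and Y and 326824 positions on 85 contigs, and 1 incomplete line was left out. Deposited positions were 1 base above RefSeq coordinates: at that offset all 256194 CpGs of RefSeq promoters were listed on both strands, against 10.2% at other offsets, so 1 was subtracted. This was settled after seeing the data.

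Each region was given the plain mean of its positions in a library (at least 6). Spans, ends, and windows were fitted with limma 3.58.1 in R 4.3.3 over all regions of their kind, with a mean-dependent prior variance and calls at a Benjamini-Hochberg adjusted p under 0.05. The model planned for read counts could not be run on levels. Scripts in Python 3.11.15 (numpy 2.4.6, pandas 2.3.3) were tested on simulated data. Doubtful zeros were exact zeros whose 10 nearest positions in the library had a median of 50% or more, 2.01% to 2.40% of positions per library. Correlations between libraries over regions were 0.990 to 0.996, and no 2 libraries held identical values.

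The members and the 13 gene lists were chosen with earlier results of these data known; 114 of 165 listed genes were tested. Named were the members, up to 4 called genes per list by size (otherwise the 2 smallest p), Arg2 to complete its list, the windows with the largest rise and fall and with the start, the longest runs, and the 3 nearest genes by library pattern. Some genes that this rule names are not reported here. Windows that give runs were taken by non-overlap, since none inside the members was called. Alternatives were zeros left out, CpG strands averaged, 12 positions, other flanks, ends or window offsets, a constant prior, logit levels, a replicate block and each library left out.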

Additional observations from a re-analysis of the deposited data

Results flagged for a closer look

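In 5 of 70 groups of 4 libraries 1 library stood apart from the other 3 by Dixon's criterion, which flags about 1 in 20 groups by chance. For Glul, the window just inside the start of the gene (chr1:153900001-153901000) was at 12.7% in NASH replicate 3 and between 0.265% and 0.588% in the other NASH libraries. That library also had 3.48% of its Glul positions listed as doubtful zeros, against 0.515% to 0.902% in the other 7, and without it the difference of the Glul span was 0.745 points in place of 1.39. In Ass1, the 250 bases before the start were at 17.8% in NASH replicate 4 and between 0% and 2.17% in the other NASH libraries. The high-coordinate end of Cps1 was at 69.9% in NASH replicate 1 and between 62.2% and 62.7% in the others. The low-coordinate end of Arg1 was at 70.03% in ND replicate 1 and between 63.8% and 64.8% in the others. The outermost window of Glul (chr1:153914001-153915000) was at 86.9% in NASH replicate 1 and between 74.9% and 76.5% in the others.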

How the results depend on the processing

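The rises over Cps1, Ass1 and Arg1 kept their direction and call in every alternative that gave a test, and that of Nags in all but one. With every 0 left out Nags changed by -1.19 points and Glul by -0.86, the excess of Nags over Glul was -0.34, and the low ends of Nags and Glul and the high end of Glul changed by -2.66, -2.20 and -1.10. Leaving out each library gave span differences of 10.1 to 11.5 points for Cps1, 8.62 to 11.1 for Ass1, 8.05 to 9.58 for Arg1, 5.04 to 5.60 for Nags and 0.745 to 2.13 for Glul, with unchanged calls, and positions outside other genes gave 6.32 for Nags, without a test. The excess over Glul was then 8.59 to 10.7, 7.20 to 10.4, 6.65 to 8.35 and 3.44 to 4.59 points, given without a test. Its call was lost with doubtful zeros left out (8.76, 7.81, 7.12 and 3.27 for Cps1, Ass1, Arg1 and Nags) and without flanks (9.63, 8.66, 11.002 and 4.44). The difference of the high end of Cps1 ran from -1.35 to 1.62 with a library left out.

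Counts moved more. Spans called higher over all genes fell in number from 881 to 153 with every 0 left out, and ranged from 576 to 799 with a library left out; spans called lower ranged from 182 to 732 there. Ends called higher (3 as deposited) numbered 10 with doubtful zeros left out, 0 with every 0 left out, 96 with a constant prior variance, 8 on logit levels, 484 with 2000 bases either way, and 0 to 2 with a library left out. Ends called lower (0) numbered 4, 49, 4 and 212 with doubtful zeros left out, a constant prior, logit levels and 2000 bases. With 2000 bases either way the high end of Ass1 (15.1 points, limma adjusted p = 0.0166), the low end of Arg1 (10.0, 0.0285) and the start of Nags (4.07, 0.00737) were called. Called 1 kb windows over the table (4) numbered 1691 with every 0 left out, 0 with a constant prior, 10 on logit levels, 8 with shifted windows and 8 to 27 with a library left out; inside the members they numbered 7 with every 0 left out and 0 otherwise.

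Windows without overlap numbered 3 in Nags with doubtful zeros left out and 1 with every 0 left out, 34 of 65 in Cps1 with at least 12 positions, and 7 in Arg1 and 0 in Glul with shifted windows. With a library left out they ranged from 58 to 71 in Cps1, 15 to 26 in Ass1, 12 to 14 in Arg1, 5 to 8 in Nags and 1 to 4 in Glul. Leaving a library out can only keep or add such windows, so these ranges are no check of the counts. With every 0 left out, 5 kb windows called higher numbered 4 in Ass1 and 0 in Nags. The cause of these shifts was not tested. Without spans listed below 1% in every library (1 gene each, a setting added after seeing the data), the list medians were 2.90 points for glutamine and glutamate genes and 0.402 for arginine users.

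With same-numbered libraries as a replicate block, limma's adjusted p was 0.0143 for Cps1, 0.0199 for Ass1, 0.0129 for Arg1, 0.0158 for Nags and 0.434 for Glul. Over all genes 590 spans were then called higher and 252 lower, with 0 ends higher and 0 windows of 1 kb. Deviations of same-numbered libraries correlated at -0.05, -0.0003, 0.13 and -0.0045 over spans, for replicates 1 to 4. The libraries numbered 3 correlated best with each other, and no other library did so with its own number. These correlations cannot show whether libraries are paired. Levels without read counts leave the precision of single positions unknown.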

Other observations

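Among the hepatocyte markers the largest rises were in the fibrinogen genes Fgg (31.9% in ND, 48.4% in NASH), Fga (35.6%, 50.9%) and Fgb (36.2%, 48.2%) and in the transthyretin gene Ttr (43.9%, 55.6%), each called by limma. The macrophage genes Mpeg1 (75.8%, 69.5%) and Lyz2 (81.0%, 76.3%) fell, as did the neutrophil genes Mpo (77.2%, 71.6%), Cxcr2 (85.5%, 80.1%) and Itgb2 (81.2%, 77.9%). Reln, a stellate cell marker, fell from 79.8% to 77.1%, and the cholangiocyte markers Muc1 and Spp1 fell from 62.8% to 59.5% and from 72.4% to 69.8%. The smallest p-values among lymphocyte markers were those of Cd2 (77.8%, 75.3%) and Ptprc (76.1%, 74.3%), and among endothelial markers those of Pecam1 (80.2%, 77.8%) and Kdr (65.9%, 64.1%), none of them called. The median difference was -1.50 points over macrophage, -2.26 over neutrophil, -1.42 over lymphocyte, -1.22 over endothelial, -1.76 over stellate cell and -0.40 over cholangiocyte markers.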
